A study of Mus musculus with 8 samples.

Results

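RNA sequencing compared 2 mouse embryonic stem (ES) cell lines that had not been treated with doxycycline. Per the labels, clone 6 contains a Ctcfl transgene and clone 7 does not. Described here are the gene entries at 1 FPKM or more in either clone without doxycycline, 12360 of the 23284 entries of the authors' deposited table. Positions given for genes are the loci of that table. Overlapping entries can share a locus, so it can be wider than the gene. FPKM counts sequenced fragments relative to transcript length and to library size, so levels can be set side by side between genes. Per the labels, both lines have a mixed strain background, were cultured on mouse embryonic fibroblast feeders and were then grown for 48 h in dishes without feeders. Sister cultures of both lines received 2 µg/ml doxycycline for the same time. Each of the 4 groups has 2 libraries of 75 bp single-end reads, 1 from each of 2 experiments, which the labels call biological replicates; how far the cultures were separate is not stated, so p-values measure the spread between these libraries. Each line is a single clone. The effect of the transgene and any other difference between the clones cannot be told apart in this comparison. The authors deposited 1 value per gene and group, which joins both libraries, so the levels carry no SD and the depth of each library is unknown.

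ES cells are held in a naive pluripotent state by factors such as Pou5f1, Sox2 and Nanog and by the cytokine LIF, and they move through formative and primed states before they enter a lineage. Wnt, Nodal and Fgf signals pattern the epiblast of the embryo and set up the primitive streak, where T and Eomes mark the cells that become mesoderm and endoderm. Ctcfl (BORIS) is a paralog, made in germ cells, of Ctcf, a zinc finger protein that binds insulators and works with cohesin to fold chromosomes.

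Markers of the labelled cell type were present in both clones. All 8 ES cell markers were at 1 FPKM or more, with sums of 3477 FPKM in clone 6 and 3625 FPKM in clone 7, and the core factor Pou5f1 was at 1116 against 1080.1 FPKM. The 8 markers of embryonic fibroblasts, the cell type of the feeders, summed to 219.9 FPKM in clone 6 and 172 FPKM in clone 7. Markers of trophoblast, primitive endoderm and neural cells summed to 6.57, 1.86 and 37.7 FPKM in clone 6 and 4.18, 1.92 and 37.5 FPKM in clone 7; Nes made up 36.4 and 34.5 FPKM of the neural sums. None of these markers was listed at 0. Ctcfl itself was below 1 FPKM in both clones, at 0.403 against 0.513 FPKM, and its paralog Ctcf was at 54.0 against 52.7 FPKM. Neither was called, with p = 0.503 for Ctcfl and p = 0.844 for Ctcf in the authors' deposited table. With doxycycline Ctcfl stayed below 1 FPKM, at 0.995 FPKM in clone 6 and 0.498 FPKM in clone 7. It was not called there either (p = 0.0614 in the authors' deposited table). Over all entries the FPKM values summed to 737443 in clone 6 and 717813 in clone 7.

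Most genes stood at similar levels in the 2 clones, and a limited set differed. On the log2 scale with 1 FPKM added to both values, 11686 of the 12360 genes (94.5%) lay within 1.5-fold, the median difference was -0.0020, and the 5th and 95th percentiles were -0.41 and 0.44. A gene is called here where the authors' deposited table marks it as tested and gives it a q-value under 0.05. Of the 12256 genes tested, 177 were called (1.44%), 104 higher and 73 lower in clone 6. Among the 13047 tested entries of the whole table, 179 were called (1.37%), 104 of them higher (0.797%) and 75 lower (0.575%). The 2 called entries below 1 FPKM were Cyp2j13 and Zbbx, both lower in clone 6. The authors' deposited table gave 815 of the 12360 genes an unadjusted p below 0.05, and 96 of the 177 called genes shared the smallest q, 0.00812. These 96 cannot be ranked by their q.

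Most of the called genes reached 1 FPKM in both clones. Of all genes, 307 reached the minimum only in clone 6 and 287 only in clone 7, and 15 and 6 of these were called. Just inside the minimum were Runx1t1, at 0.880 against 1.00001 FPKM, and Mybpc2, at 0.695 against 1.0014 FPKM. Just outside it were Tmem136, at 0.99962 against 0.925 FPKM, and 2410066E13Rik, at 0.828 against 0.99993 FPKM. Among genes at the edge of the call were Sytl1, Evx1, Sfrp1, H2-Bl and Exd1 (q = 0.04995 for each in the authors' deposited table). Efna5 and Ptch1 lay just outside it (q = 0.05398 for both). The size of difference that could be called changed with the level. Under a mean of 5 FPKM over the 4 groups the smallest called fold was 1.74 and the median SE of a log2 ratio 0.51, and at 100 FPKM or more these were 1.54 and 0.21. The share of tested genes called ran from 1.24% to 1.58% over 4 bands of level. Of the 334 tested genes that differed 2-fold or more, 116 were called. Among 141 entries for microRNAs and small nucleolar RNAs 0 were called, and they made up 64 of the 70 entries listed at 0 in a clone. Some of the 141 were not tested and so could not be called. FPKM values of such short entries are uncertain, since they divide by a very short length.

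**Figure D1:**
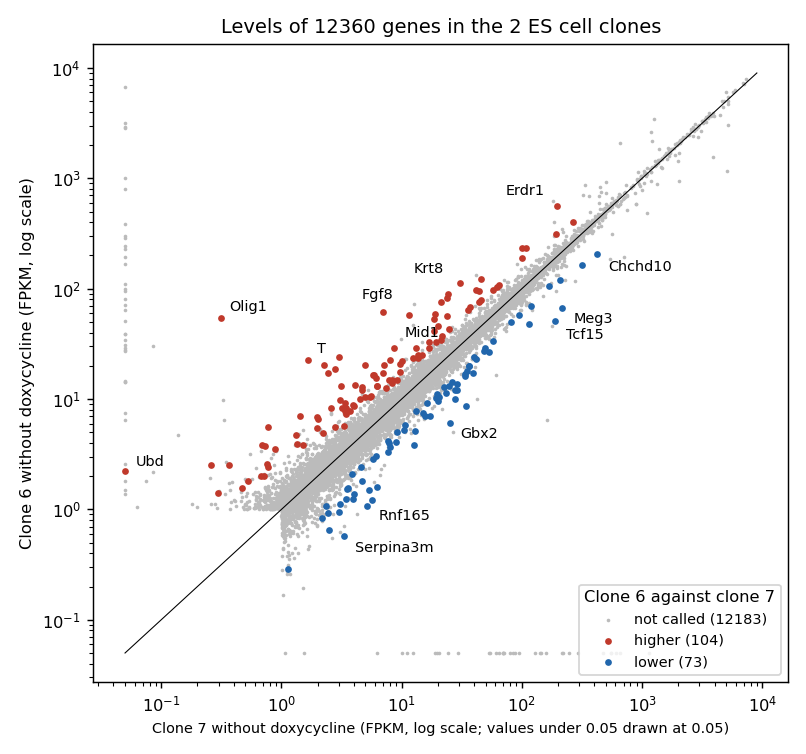
Each point is 1 of the 12360 genes, with its FPKM in clone 7 on the horizontal and in clone 6 on the vertical log axis, both without doxycycline. The 104 genes called higher in clone 6 are red, the 73 called lower are blue, the others grey, and the line marks equal levels; Olig1, at 54.5 FPKM in clone 6 and 0.312 FPKM in clone 7, lies farthest from it among the called genes with a value above 0 in both clones.

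T, Eomes, Sp5, Evx1 and Sp8, transcription factors of the primitive streak and early mesoderm, were higher in clone 6. T, also known as brachyury and the founding T-box factor (chromosome 17, 8434423 to 8442496, protein coding), was at 22.4 FPKM in clone 6 and 1.67 FPKM in clone 7. In the doxycycline cultures it was at 36.3 against 2.02 FPKM, so both clone 6 values lay above both clone 7 values. Without doxycycline the ratio was 13.4-fold, or 3.75 on the log2 scale with an SE of 0.49. Eomes, the T-box factor of the anterior streak and of trophoblast (chromosome 9, 118478189 to 118486132), was at 18.8 against 2.79 FPKM, a ratio of 6.75-fold. Sp5, a zinc finger factor that Wnt signals induce (chromosome 2, 70474923 to 70477726), was at 24.003 against 2.99 FPKM, a ratio of 8.03-fold. All 3 stayed below 3 FPKM in clone 7. Evx1, a homeobox factor of the posterior streak, was at 2.51 against 0.262 FPKM, and Sp8, a relative of Sp5, at 1.80 against 0.528 FPKM. Evx1 and Sp8 were not called with doxycycline, at 3.44 against 0.200 FPKM and 1.06 against 0.558 FPKM.

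Of the 31 factors of the streak and early mesoderm looked up, 17 reached 1 FPKM in a clone. Among these 5 were called higher, 1 was called lower and 11 were not called. The median difference was 0.50 on the log2(FPKM + 1) scale, against -0.0020 over all genes, and 15 of 17 lay above 0. The streak homeobox genes Gsc, at 3.37 against 0.901 FPKM, and Mixl1, at 2.08 against 0.800 FPKM, were not called, and neither was Snai1, which drives epithelial to mesenchymal transition, at 12.8 against 9.26 FPKM. The single member called lower was Tcf15, a helix-loop-helix factor of the paraxial mesoderm that is also active in ES cells, at 50.9 against 188 FPKM. It was the most abundant of the 17 in both clones, and the summed level of the 17 was 155 FPKM in clone 6 and 219.7 FPKM in clone 7. In the bulk RNA measured here, fewer cells of a type and less RNA per cell cannot be told apart.

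The core of the motif bound by Tcf and Lef factors, the DNA-binding partners of beta-catenin, was looked up in the 250 bases before the start sites of 12 signalling, streak and keratin genes. It stood before the starts of T and Sp5 and before 1 of the 3 starts of Sp8. The windows of T and Sp5 are shown for that reason, from RefSeq on build GRCm38.p6, plus strand, for T at chr17:8434173-8434422 and for Sp5 at chr2:70474673-70474922. Capitals mark CTTTGA or its reverse complement TCAAAG.
T: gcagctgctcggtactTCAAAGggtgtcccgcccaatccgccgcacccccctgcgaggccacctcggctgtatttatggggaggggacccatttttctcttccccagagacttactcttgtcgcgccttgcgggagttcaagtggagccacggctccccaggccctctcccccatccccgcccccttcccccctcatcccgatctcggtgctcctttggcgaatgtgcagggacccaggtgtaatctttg
Sp5: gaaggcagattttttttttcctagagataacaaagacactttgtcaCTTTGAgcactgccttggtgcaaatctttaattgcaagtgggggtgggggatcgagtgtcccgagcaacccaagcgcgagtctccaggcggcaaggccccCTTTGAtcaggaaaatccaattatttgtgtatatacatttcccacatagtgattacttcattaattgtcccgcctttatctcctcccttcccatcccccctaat
In T the match begins 234 bases before the start, and in Sp5 the 2 matches begin 204 and 104 bases before it. The same 6 letters, on either strand, stand in 4544 of all 32851 promoter windows of this length (13.8%). Among the windows of genes called higher in clone 6 they stand in 14 of 88 (15.9%, 74 genes), and among those of genes called lower in 10 of 64 (15.6%, 53 genes). Both shares are close to that of all windows. A match is a description of letters and not a bound site.

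Wnt ligands, receptors and feedback targets were among the genes higher in clone 6. Wnt8a, a ligand of the early streak (chromosome 18, 34542328 to 34548061), was at 17.3 against 2.45 FPKM, a ratio of 7.07-fold. Wnt3, the ligand needed to form the streak (chromosome 11, 103774175 to 103818021), was at 7.02 against 1.44 FPKM, a ratio of 4.89-fold. With doxycycline they stood at 15.1 against 2.80 FPKM and at 7.87 against 1.07 FPKM, again with both clone 6 values above both clone 7 values. Of 19 Wnt ligands 6 reached 1 FPKM, 2 of them called higher and 0 lower, with a median of 1.00 on the log2(FPKM + 1) scale. The others were not called, with Wnt7b at 2.80 against 1.34 FPKM, Wnt5a at 2.06 against 2.17 FPKM, Wnt5b at 2.92 against 0.816 FPKM and Wnt4 at 1.80 against 0.508 FPKM.

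Among 24 Wnt receptors and modulators 2 were called higher and 1 lower, and the median was 0.01. The receptor Fzd10 was at 13.3 against 4.07 FPKM, and Ror2, a receptor tyrosine kinase for Wnt5a, at 16.6 against 5.78 FPKM. Sfrp1, a secreted antagonist that binds Wnt ligands, was lower in clone 6, at 5.04 against 9.22 FPKM. The more abundant receptors stood close to equal, with Fzd7 at 38.2 against 37.5 FPKM and Lgr4 at 33.96 against 31.0 FPKM. Of 20 intracellular parts and targets 2 were called higher, Sp5 and Axin2, and the median was 0.01. Axin2, a target gene that feeds back on the pathway, was at 9.70 against 3.07 FPKM, while its relative Axin1 was at 30.5 against 31.4 FPKM. The effector Ctnnb1, which encodes beta-catenin, was at 244 against 249.7 FPKM and the repressor Tcf7l1 at 90.1 against 86.0 FPKM; neither was called.

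Nodal, the activin antagonist Fst and Fgf8 were higher in clone 6, while most other members of their lists were not called. Nodal, the ligand of the TGF-beta family that induces the streak (chromosome 10, 61417972 to 61425337), was at 56.7 against 23.98 FPKM, a ratio of 2.36-fold. The other Nodal and activin ligands were not called, with Gdf3 at 45.3 against 37.4 FPKM and Inhba at 28.5 against 20.5 FPKM. Fst, which encodes follistatin, was at 20.2 against 7.09 FPKM, a ratio of 2.85-fold. It was the 1 called member of 8 inhibitors. Lefty1 and Lefty2, Nodal's secreted feedback inhibitors, stood at 302 against 231 FPKM and at 91.4 against 69.6 FPKM and were not called. Of 7 Nodal and activin receptors and coreceptors, 4 effectors and 20 members of the Bmp pathway 0 were called; the medians were 0.12, 0.15 and 0.19, and the authors' deposited table gave 3 Bmp members an unadjusted p below 0.05.

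Fgf8, a ligand of the streak and of later organizers (chromosome 19, 45736798 to 45742884), was at 61.8 against 7.01 FPKM, a ratio of 8.81-fold with a log2 ratio of 3.14 (SE 0.32). Fgf4, the ligand that ES cells use to leave the naive state (chromosome 7, 144861386 to 144865243), went the other way, at 28.9 against 49.4 FPKM, so it was 1.71-fold lower in clone 6. The order of the 2 ligands was therefore reversed between the clones, with Fgf8 above Fgf4 in clone 6 and below it in clone 7. Of 11 Fgf ligands these were the 2 called, and the median was -0.30. Fgf5, the ligand that marks the formative epiblast, was at 22.6 against 12.9 FPKM and was not called (p = 0.0007 in the authors' deposited table). Among 20 Fgf receptors and Erk feedback genes Spry4, an inhibitor of Erk signalling, was the 1 called, lower in clone 6 at 14.3 against 26.3 FPKM. The other abundant feedback genes were close to equal, with Etv5 at 122 against 126 FPKM, Spry2 at 46.9 against 50.9 FPKM and Dusp6 at 44.6 against 47.6 FPKM.

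**Figure D2:**
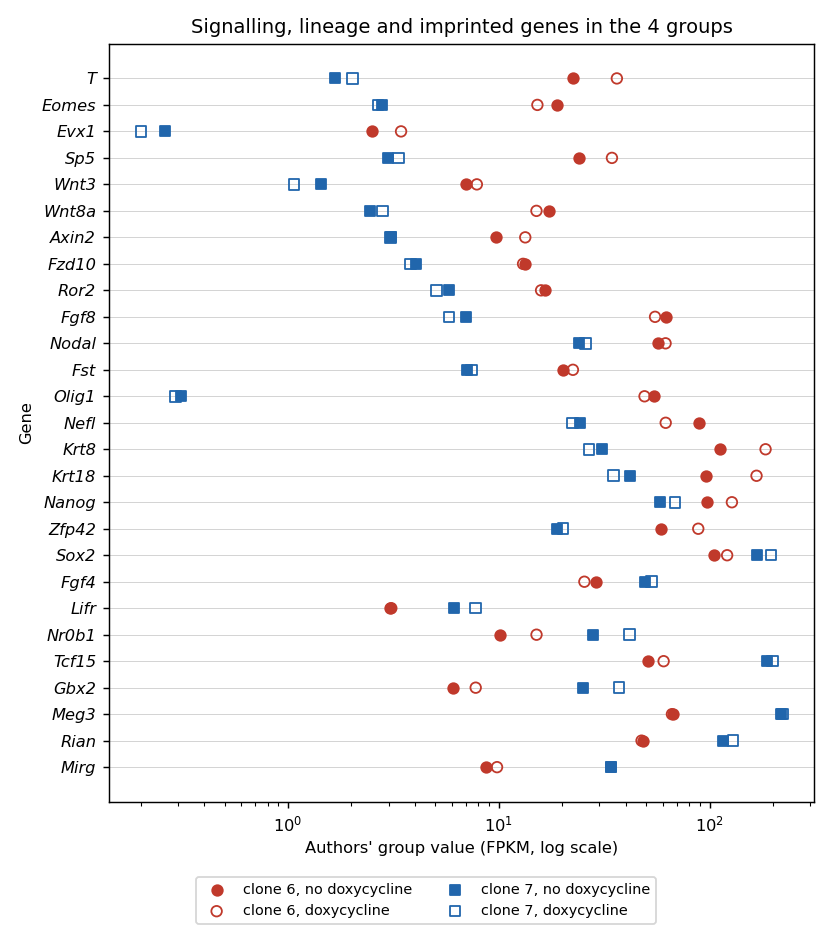
For 27 genes named in the text, each row gives the authors' FPKM value on a log axis in clone 6 (red circles) and clone 7 (blue squares), filled without and open with doxycycline; there are no error bars because 1 value per group was deposited. In every row both clone 6 values lie on the same side of both clone 7 values, as for Nodal, at 56.7 and 61.8 FPKM in clone 6 and 23.98 and 25.8 FPKM in clone 7.

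The largest called fold in the comparison was that of Olig1, a helix-loop-helix factor of the oligodendrocyte lineage (chromosome 16, 91269769 to 91271939). Its level was 54.5 FPKM in clone 6 and 0.312 FPKM in clone 7, and 49.1 and 0.293 FPKM with doxycycline. The log2 ratio without doxycycline was 7.45 with an SE of 0.59. Its neighbour Olig2 (chromosome 16, 91225550 to 91228677), named here after its values were seen, stood at 30.5 against 0.0854 FPKM without and 25.8 against 0.0784 FPKM with doxycycline. Olig2 had a larger ratio than Olig1 but was not called, with p = 0.00865 and p = 0.022 in the 2 comparisons of the authors' deposited table. Most other neural genes were not called. Of 26 neural genes at 1 FPKM or more, 2 were called higher, 2 lower and 22 were not called, and the median was -0.27. The other called members were Nefl, a neurofilament subunit, at 89.0 against 24.3 FPKM, the homeobox factor Gbx2 (6.04 against 25.0 FPKM), and Tagln3, a neuronal relative of transgelin, at 1.59 against 6.27 FPKM. Of the 75-base stretches of Nefl transcripts 31.3% are shared with other genes, so its level is less certain. Among the most abundant members not called, Stmn2 was at 52.8 against 64.6 FPKM, Tubb3 at 37.4 against 51.7 FPKM and Crmp1 at 35.2 against 53.2 FPKM.

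Krt8, Krt18, Sfn and Dsp, genes of epithelial cells, were higher in clone 6. Krt8 and its partner Krt18, keratins of simple epithelia, lie side by side (chromosome 15, 101996711 to 102004342, and chromosome 15, 102028216 to 102032026). Krt8 was at 112 against 30.8 FPKM and Krt18 at 96.3 against 41.8 FPKM. Krt8 shares 23.5% of its 75-base stretches with other genes and Krt18 0%. Sfn, which encodes the epithelial adaptor 14-3-3 sigma, was at 232 against 100.3 FPKM, and Dsp, which encodes the desmosomal plaque protein desmoplakin, at 9.27 against 3.38 FPKM. These 4 were the called members among 32 genes of epithelial junctions and intermediate filaments, 0 were lower, and the median was 0.23 with 27 of 32 above 0. Cdh1, which encodes E-cadherin, was at 187 against 162 FPKM, Epcam at 152 against 115 FPKM and the claudin gene Cldn6 at 150.3 against 98.1 FPKM; none of the 3 was called. Cdh2 and Vim, markers of mesenchymal cells in the same list, were at 5.96 against 5.54 FPKM and 259.9 against 227 FPKM and were not called. The trophoblast list, which also holds Krt8, Krt18 and Eomes, had 15 members, of which these 3 were called higher and Phlda2 lower, and a median of 0.48. None of its 4 defining markers was called. Krt7 was the most abundant, at 4.51 against 3.26 FPKM without and 5.92 against 2.18 FPKM with doxycycline. Elf5 was at 0.0490 against 0.0221 FPKM, Gata3 at 0.590 against 0.378 FPKM and Cdx2 at 1.42 against 0.514 FPKM.

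Of the contractile and actin genes Tpm1, Tagln and Csrp1 were higher in clone 6. Tpm1, an abundant tropomyosin, was at 315 against 192 FPKM, Tagln, which encodes transgelin, at 188 against 101 FPKM and Csrp1, an actin-bundling LIM protein gene, at 75.4 against 44.3 FPKM. Of the 75-base stretches of Tagln transcripts 53.3% are shared with other genes. How the authors' counting split such reads is not stated, so the level of Tagln is less certain. Of the 20 members 3 were called higher, 0 lower and 17 were not called, and the median was 0.47 with 20 of 20 above 0. The smooth muscle actin gene Acta2 was at 103 against 65.3 FPKM and was not called. Fibroblast genes are given beside them: of 38 fibroblast (feeder) genes 33 lay above 0, with a median of 0.26, 2 called higher and 0 lower. The 2 were Cyr61, a matrix protein gene that Yap induces, at 108 against 64.3 FPKM, and the chemokine gene Cxcl12, at 11.99 against 4.67 FPKM. Of the 8 defining fibroblast markers 7 had the larger value in clone 6 and 0 were called, with Col1a1 at 132 against 92.8 FPKM and Thy1 at 25.7 against 25.9 FPKM. Their summed level was 1.28 times as high in clone 6 without doxycycline and 1.33 times with it. The part of feeder cells in the contractile and matrix genes was not tested.

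Pluripotency genes did not move as a block. Nanog (chromosome 6, 122707568 to 122713778) was higher in clone 6, at 97.6 against 57.9 FPKM, and so was Zfp42, the ES cell zinc finger gene also called Rex1 (chromosome 8, 43295067 to 43307009), at 58.8 against 18.9 FPKM. Sox2 (within the locus at chromosome 3, 34560381 to 34677993) was lower, at 105 against 168 FPKM. Thus 3 familiar ES cell genes differed in opposite directions, while Pou5f1 and the ES cell gene Dppa5a stayed level, with Dppa5a at 1269 against 1218 FPKM. Dnmt3l, a cofactor of the de novo DNA methyltransferases, was also lower, at 119.6 against 206 FPKM. Of 13 core pluripotency genes 1 was called higher and 2 lower, and the median was -0.10.

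Of 27 naive pluripotency genes 6 were called lower in clone 6, 1 (Zfp42) was called higher and 20 were not called. The median was -0.56, and 22 of the 27 values lay below 0. Gbx2, a homeobox gene that sustains naive ES cells (chromosome 1, 89927962 to 89931176), was 4.14-fold lower, at 6.04 against 25.0 FPKM. Nr0b1, an orphan nuclear receptor that binds Pou5f1, was at 10.1 against 28.0 FPKM, and Lifr, the receptor subunit for LIF, at 3.03 against 6.13 FPKM. The germline gene Morc1 was at 3.99 against 7.85 FPKM, and Tcf15 and Fgf4, described above, complete the 6. Klf5, Socs3 and Esrrb, which act downstream of LIF or with the core factors, were not called, at 63.5 against 97.9 FPKM, 29.5 against 48.7 FPKM and 19.7 against 32.8 FPKM. Their p-values in the authors' deposited table were 0.0024, 0.0009 and 0.0007.

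Formative and primed epiblast genes held few calls. Of 20 such genes 1 was called higher, Krt18, and 1 lower, Foxd3, a forkhead factor of the epiblast and neural crest, at 23.2 against 41.4 FPKM. The median was -0.14. Dnmt3b, the de novo methyltransferase of the epiblast, was at 424 against 430.2 FPKM, Pou3f1 at 73.6 against 97.3 FPKM and Otx2 at 38.6 against 45.2 FPKM, and none was called. Dnmt3l was also the 1 called of 18 DNA methylation genes, whose median was -0.09.

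The imprinted Dlk1-Dio3 region on chromosome 12 carried 3 of the abundant lower transcripts, all of them noncoding RNAs made from the maternal allele. Meg3 (chromosome 12, 109540996 to 109571729) was at 66.7 against 217 FPKM, 3.26-fold lower in clone 6. Rian (chromosome 12, 109603945 to 109661711) was at 48.3 against 115 FPKM, and Mirg (chromosome 12, 109734981 to 109749457), which hosts microRNAs, at 8.74 against 33.95 FPKM. With doxycycline the 3 were at 66.2 against 221 FPKM, 47.5 against 129 FPKM and 9.81 against 34.1 FPKM, so each clone held nearly the same level in both cultures. The protein-coding genes of the region, which are made from the paternal allele, were low in both clones and were not called without doxycycline, with Dlk1 at 2.56 against 3.10 FPKM, Rtl1 at 0.4504 against 1.29 FPKM and Dio3 at 1.20 against 0.804 FPKM. With doxycycline Rtl1 was called lower in clone 6, at 0.358 against 1.40 FPKM (q = 0.0462 in the authors' deposited table). Rtl1 overlaps antisense transcription from the maternal allele, and the sources used here do not state whether counting used strand. Of the 7 genes of the list 3 were called lower and 0 higher, with a median of -0.66.

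Other imprinted genes were mostly level. Among 41 of them outside this region 1 was called higher and 1 lower, and the median was 0.03. Peg3, a paternally expressed zinc finger gene (chromosome 7, 6705960 to 6730419), was at 29.2 against 8.72 FPKM, 3.35-fold higher in clone 6. Phlda2, a maternally expressed gene that restrains placental growth, was at 162 against 314 FPKM. Of the abundant imprinted genes not called, Gnas was at 379.7 against 317 FPKM, Cd81 at 132 against 118 FPKM and Grb10 at 76.2 against 73.8 FPKM. Igf2 and H19, the neighbouring pair with opposite parental expression, were at 7.24 against 6.18 FPKM and 28.2 against 34.5 FPKM and were not called.

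**Figure D3:**
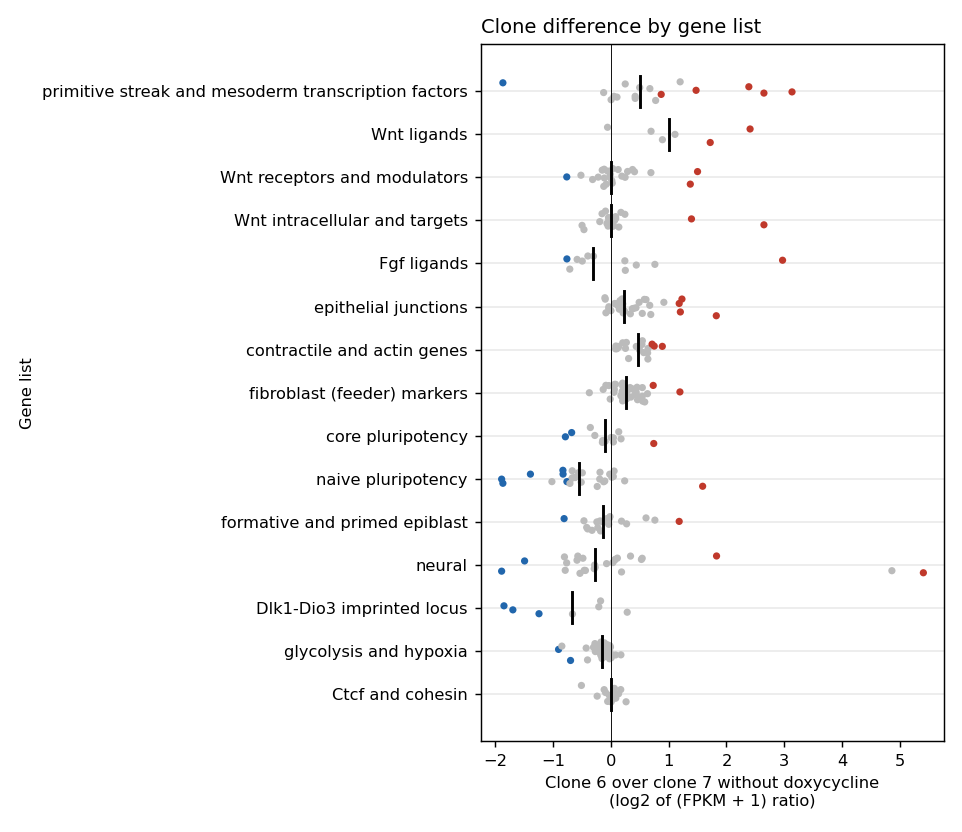
Each point is a gene at 1 FPKM or more in either clone, placed by its clone 6 over clone 7 ratio without doxycycline on the log2(FPKM + 1) scale and grouped by gene list; red genes were called higher, blue lower, grey not called, black bars mark list medians, and vertical scatter within a row has no meaning. The bar of the naive pluripotency list lies at -0.56 and that of the contractile and actin genes at 0.47, against -0.0020 over all genes.

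Germline genes appeared at both ends of the comparison. Cyct, the testis form of cytochrome c (chromosome 2, 76353943 to 76360448), was at 20.1 against 2.25 FPKM, a ratio of 8.94-fold. Its somatic relative Cycs was close to equal, at 41.9 against 38.9 FPKM, and was not called. Sycp1, a filament protein of the synaptonemal complex of meiosis, was at 3.73 against 0.727 FPKM. Tex15, a germline gene needed for meiotic recombination, was lower in clone 6, at 1.24 against 3.44 FPKM. Of 33 germline, meiosis and cancer-testis genes these 3 were called, and the median was -0.03. None of the 39 Hox genes reached 1 FPKM in a clone, and of 17 Ctcf and cohesin genes 0 were called and the median was 0.01. The authors' deposited table gave 1 of the 17 an unadjusted p below 0.05.

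Immune genes contained the 1 called member listed at 0 in a clone. Ubd, which encodes a ubiquitin-like protein of the interferon response (chromosome 17, 37193892 to 37196101), was at 2.21 FPKM in clone 6 and listed at 0 in clone 7. With doxycycline it was at 2.68 FPKM and again listed at 0. Ltb, the cytokine lymphotoxin beta, was at 20.2 against 4.94 FPKM, and Tapbp, which loads peptides on class I molecules, at 32.8 against 19.16 FPKM. H2-Bl, a class I gene of the major histocompatibility complex, was lower in clone 6, at 1.22 against 5.68 FPKM. Ltb, Tapbp and H2-Bl were the called members of a list of 32 class I and interferon genes, whose median was 0.23.

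Metabolic and growth lists held few calls. The median of glycolysis and hypoxia genes was -0.15, with 34 of 37 below 0 and 2 called lower. These were Egln3, the oxygen-sensing prolyl hydroxylase, at 10.4 against 20.3 FPKM, and Bnip3, a mitophagy receptor, at 58.1 against 94.5 FPKM. Gapdh, at 3205 against 3213 FPKM, and Pkm2, at 2406 against 2641 FPKM, were not called. Cdkn1a, the p21 inhibitor of cyclin-dependent kinases, was the 1 called of 41 cell cycle genes, at 63.7 against 35.4 FPKM. Together with Pmaip1, a pro-apoptotic BH3 gene that was lower at 19.997 against 36.1 FPKM, it made up the called members of 26 p53 targets and apoptosis genes. Of 82 ribosomal protein genes, 74 subunits of oxidative phosphorylation, 29 genes of the Atf4 and unfolded protein responses, 18 Notch genes and 23 histone genes (17 tested) 0 were called. By the authors' deposited table the numbers with an unadjusted p below 0.05 were 2, 0, 2, 4 and 1.

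Single called genes came from other lists. Sema3c, a secreted guidance cue, was higher in clone 6, at 2.42 against 0.768 FPKM, and Lama1, a laminin subunit of the embryonic basement membrane, was lower, at 1.54 against 3.48 FPKM. Dhrs7, a short-chain dehydrogenase gene, was lower at 3.81 against 12.8 FPKM. Among abundant genes outside the lists, Erdr1 was at 560.0 against 194 FPKM, the nucleosome-binding protein gene Hmgn2 at 406 against 264 FPKM, S100a10, the partner of annexin A2, at 233 against 108 FPKM and the mitochondrial gene Chchd10 at 205 against 423 FPKM. Further large folds belonged to genes at low levels. Kbtbd11 was at 2.52 against 0.364 FPKM, 4933404O12Rik at 5.63 against 0.774 FPKM and 9130008F23Rik at 3.87 against 0.692 FPKM. On the lower side Serpina3m, a serine protease inhibitor gene, was at 0.574 against 3.30 FPKM, Rnf165, a ubiquitin ligase gene, at 1.07 against 5.18 FPKM and the junctional adhesion gene Jam2 at 1.36 against 4.05 FPKM. Arhgap30 was at 0.948 against 2.99 FPKM, Cass4 at 0.653 against 2.48 FPKM, 2610037D02Rik at 1.51 against 5.31 FPKM and Exd1 at 0.288 against 1.13 FPKM. Of the 177 called genes 164 are protein coding by RefSeq, 6 are long noncoding RNAs, 4 are transcribed pseudogenes and 3 had no match.

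Some called genes were neighbours. With at most 500 kb from the start of 1 called gene to the start of the next, 13 runs held 31 of the 177. In 13 of 13 runs the genes differed in 1 direction. How many such runs 177 genes placed at random would form was not tested. Members of a run need not be separate signals, since some share sequence with other genes. Jmjd7 and Pla2g4b, a run on chromosome 2, share 58.5% and 63% of their 75-base stretches with other genes. Genes of these runs that the naming rule does not cover were named after their values were seen. On the X chromosome Zdhhc9 was at 12.9 against 4.69 FPKM, Utp14a (chromosome X, 48256934 to 48285426) at 96.2 against 44.3 FPKM and Bcorl1 at 3.80 against 1.51 FPKM. Apln, before them, was at 3.19 against 1.495 FPKM with p = 0.00735 in the authors' deposited table and was not called. From the start of Apln to the end of Bcorl1 the stretch spans 381 kb, and its 3 called genes were between 2.17-fold and 2.75-fold higher in clone 6. The flanking genes were not called: Ocrl was at 5.56 against 6.93 FPKM and Aifm1 at 28.2 against 27.8 FPKM. Across the whole X chromosome 11 of 428 tested genes were called (2.57%), 3 of them in this stretch. The shares called on the autosomes ran from 0.503% (chromosome 11) to 2.31% (chromosome 4). The X median was 0.07, the highest of the chromosomes other than Y. The medians of the autosomes ran from -0.03 to 0.02. With doxycycline the X median was 0.0146, below the 0.0157 of chromosome 17.

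The X and Y chromosomes also carried 3 of the larger differences. Kdm5d, a histone demethylase gene of the Y chromosome (chromosome Y, 897788 to 943811), was at 1.40 against 0.299 FPKM. The other Y-linked genes outside the region shared with X were not called. Eif2s3y was at 43.0 against 38.4 FPKM, Ddx3y at 12.2 against 11.6 FPKM, Uty at 5.33 against 4.90 FPKM and Ube1y1 at 1.95 against 1.11 FPKM, the last with p = 0.0345 in the authors' deposited table, so Y-linked transcripts were present in both clones. Mid1, a ubiquitin ligase gene toward the end of the X chromosome (chromosome X, 169685247 to 169990797), was at 57.4 against 11.4 FPKM, a ratio of 5.02-fold. Of the 75-base stretches of its transcripts 26.25% are shared with other genes. Erdr1, in the region that X and Y share, is placed on Y in the authors' deposited table. Xist, the noncoding RNA of X inactivation, was at 1.26 against 1.17 FPKM and was not called.

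On chromosome 4 several genes of a zinc finger cluster were lower in clone 6. The window held 23 genes at 1 FPKM or more, of which 6 were called lower and 0 higher, over 2031 kb from the first to the last called gene. Zfp600 was at 13.8 against 28.6 FPKM, Rex2 at 16.2 against 33.8 FPKM and Gm13242 at 26.8 against 52.96 FPKM. Gm13247, Gm13154 and Zfp534 were at 17.9 against 35.2 FPKM, 16.9 against 33.7 FPKM and 33.8 against 57.8 FPKM. The 6 ratios were alike, between 1.71-fold and 2.09-fold lower in clone 6. Other genes between them were not called, among them 2610305D13Rik, whose value was larger in clone 6, at 42.2 against 33.3 FPKM. The authors' deposited table gave 10 lower genes of the 23 an unadjusted p below 0.05. The genes of the cluster share sequence to different degrees. Of the 75-base stretches of its transcripts, Rex2 shares 82.5% with other genes, Zfp600 74.5% and Gm13154 4.36%. The sources used here do not state how the authors' counting split reads shared by these genes, and their separate levels are uncertain. Among all 312 numbered Zfp genes at 1 FPKM or more 3 were called lower, Zfp600, Zfp534 and Zfp229 on chromosome 17, at 3.33 against 7.66 FPKM, and Zfp42 was called higher. Calls among the 312 were no more frequent than the 1.44% over all tested genes.

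Some of these genes are also alike in the bases before their starts, shown for the 4 of the 6 called genes whose windows were most alike. They are the 250 bases before the start from RefSeq, build GRCm38.p6, plus strand: Zfp600 at chr4:146156577-146156826, Rex2 at chr4:147021600-147021849, Gm13242 (Zfp980 in RefSeq) at chr4:145670447-145670696 and Gm13154 (Zfp985 in RefSeq) at chr4:147553027-147553276. Capitals mark the longest run that all 4 share.
Zfp600: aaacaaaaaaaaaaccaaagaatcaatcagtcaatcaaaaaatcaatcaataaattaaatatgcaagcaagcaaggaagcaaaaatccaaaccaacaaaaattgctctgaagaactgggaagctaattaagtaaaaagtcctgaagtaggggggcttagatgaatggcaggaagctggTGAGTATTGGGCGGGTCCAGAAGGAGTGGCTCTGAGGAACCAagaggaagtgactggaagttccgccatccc
Rex2: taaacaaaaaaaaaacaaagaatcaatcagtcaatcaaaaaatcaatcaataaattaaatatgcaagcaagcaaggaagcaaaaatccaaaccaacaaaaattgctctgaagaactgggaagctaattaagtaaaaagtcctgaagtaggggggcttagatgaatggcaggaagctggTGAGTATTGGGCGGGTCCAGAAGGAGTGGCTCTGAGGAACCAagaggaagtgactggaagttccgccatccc
Gm13242: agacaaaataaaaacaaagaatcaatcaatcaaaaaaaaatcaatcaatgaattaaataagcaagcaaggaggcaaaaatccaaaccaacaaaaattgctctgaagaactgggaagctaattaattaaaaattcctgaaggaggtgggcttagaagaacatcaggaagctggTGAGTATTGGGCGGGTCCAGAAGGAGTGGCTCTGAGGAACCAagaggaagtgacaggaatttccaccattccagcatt
Gm13154: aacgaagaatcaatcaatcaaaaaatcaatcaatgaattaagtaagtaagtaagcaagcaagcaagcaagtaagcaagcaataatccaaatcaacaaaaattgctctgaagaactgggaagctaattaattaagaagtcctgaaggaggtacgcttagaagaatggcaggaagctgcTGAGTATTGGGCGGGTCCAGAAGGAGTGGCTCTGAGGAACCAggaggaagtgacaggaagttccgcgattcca
The shared run is 42 bases long and begins 72, 72, 78 and 73 bases before the start. In a global alignment Zfp600 was 99.2% identical to Rex2, 88.3% to Gm13242 and 80.9% to Gm13154. The windows of the other 2 called genes, Gm13247 and Zfp534, were 70.3% and 69.5% identical to that of Zfp600. Gm13051, a gene of the same cluster that was not called (35.9 against 49.3 FPKM), was 77.4% identical to Zfp600 and 83.8% to Gm13154. The latter exceeds the 80.9% between Zfp600 and Gm13154, so the 4 shown are not set apart from this uncalled gene.

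**Figure D4:**
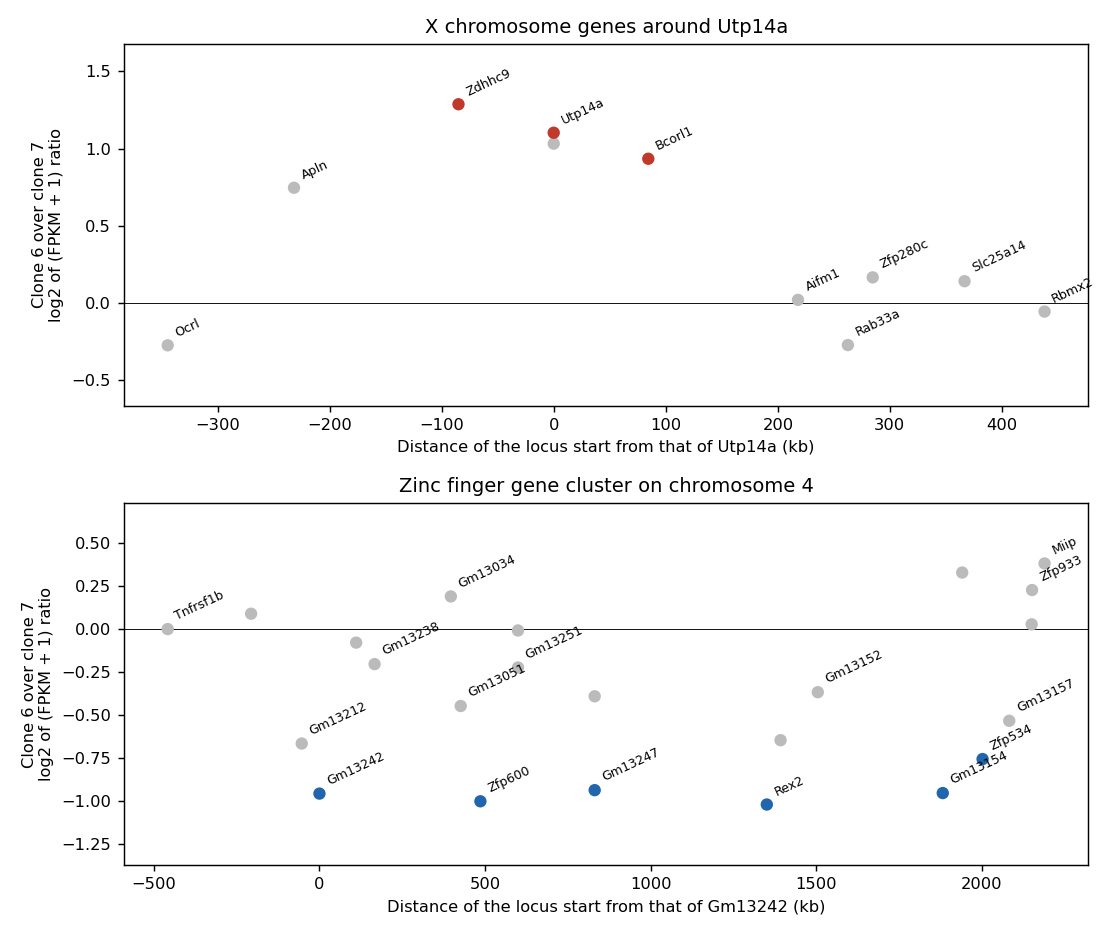
Genes at 1 FPKM or more around Utp14a on the X chromosome (upper) and in the zinc finger cluster of chromosome 4 (lower) are placed by the distance of their locus start in kb and by their clone 6 over clone 7 ratio without doxycycline on the log2(FPKM + 1) scale; red genes were called higher, blue lower, grey not called, and overlapping entries and pseudogenes are drawn without names. The upper panel shows a raised stretch that ends before Aifm1, and the lower panel 6 blue genes at similar depth with grey genes between them.

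Other runs held 2 or 3 called genes. On chromosome 4 Sytl1, at 6.85 against 1.99 FPKM, formed a run with Sfn and Hmgn2, and all 3 were higher in clone 6. Triml2, a neighbour of Zfp42 on chromosome 8, was higher at 16.7 against 5.91 FPKM, and Triml1, next to it, was at 6.79 against 3.76 FPKM and was not called. On chromosome 2 Mcm8, Lrrn4 and Fermt1 were higher, at 10.6 against 5.55 FPKM, 14.8 against 7.89 FPKM and 5.41 against 1.99 FPKM, while Crls1 between them was at 13.8 against 14.4 FPKM. On chromosome 10 Mmp11, a matrix metalloproteinase gene next to Chchd10, was lower at 7.51 against 15.2 FPKM. Meg3, Rian and Mirg, and Krt8 and Krt18, form runs of their own.

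The clone difference was seen again in the cultures with doxycycline, which share no library with those without it but come from the same clones and experiments. All 177 genes called without doxycycline differed in the same direction with it. Of these 137 (77.4%) were also called there, 79 of the 104 higher and 58 of the 73 lower genes, and the authors' deposited table gave 175 an unadjusted p below 0.05. With doxycycline 199 of 13064 tested entries of the whole table were called (1.52%), 112 higher (0.857%) and 87 lower (0.666%). Of the genes at 1 FPKM or more in either clone with doxycycline, 196 were called there. Of those, 137 (69.9%) were called without it too. The ratio of the log2 difference with doxycycline to that without had a median of 1.05 and ran from 0.42 to 1.87. At the low end stood Hmgn2, at 337 against 281 FPKM with doxycycline, whose p there was 0.161 in the authors' deposited table. At the high end stood Krt18, at 167 against 35.0 FPKM with doxycycline, and after it Dsp, at 17.1 against 2.99 FPKM. Across the 12360 genes, which are not independent replicates, the log2(FPKM + 1) differences of the 2 comparisons had a Spearman correlation of 0.66 and a Pearson correlation of 0.25.

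**Figure D5:**
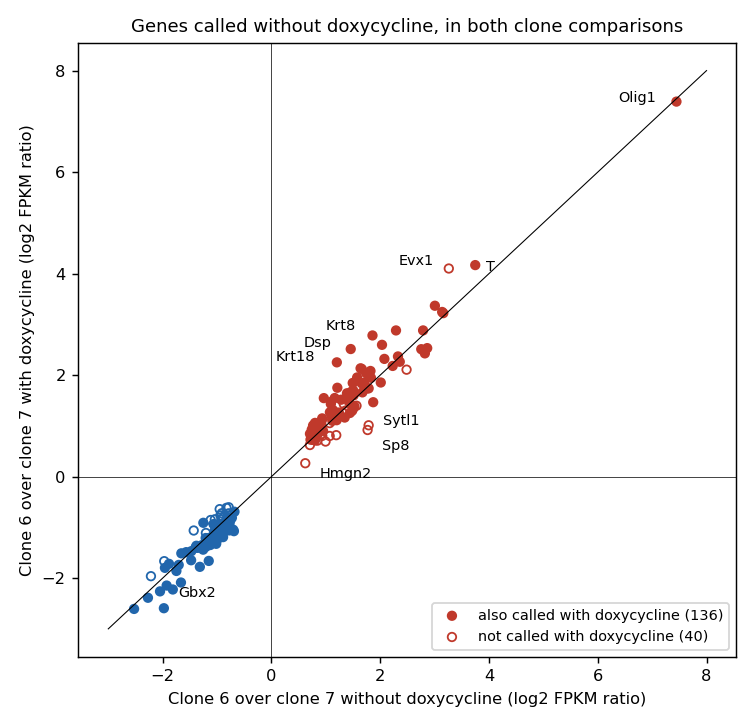
The 176 called genes with values above 0 in all 4 groups are placed by the log2 FPKM ratio of clone 6 over clone 7 without doxycycline (horizontal) and with it (vertical); red genes were called higher and blue lower without doxycycline, filled circles were also called with it (136), open circles were not (40), and the line marks equal ratios. Every point lies in the lower left or upper right quadrant, and Krt8, Krt18 and Dsp lie above the line.

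Whether a gene's clone difference changed with doxycycline was tested by dividing the difference of the 2 log2 ratios by its standard error, in a two-sided normal test with Benjamini-Hochberg adjustment over 12835 genes. This test is an approximation, since each group has 2 libraries. It called 19 genes (0.148%), 16 of them microRNA or small nucleolar RNA entries. Without such entries it called 2, and with standard errors taken from the deposited p it called 0. The authors' deposited p goes no lower than 5e-05, which sets a minimum for these errors relative to the ratio. This last count therefore cannot show that no clone difference changed. In the main version of the two-sided normal test 60 of the 12835 genes had an unadjusted p under 0.05. That is a smaller share than this cutoff would give by chance, so the main version was strict too. Of the 176 genes called between the clones without doxycycline that could be tested, 0 were called in it. For the same reason this cannot show that none of the 176 changed with doxycycline. The smallest p among them was 0.000454, for Krt18, with an adjusted p of 0.233; its log2 ratio without doxycycline minus that with it was -1.05 (SE 0.30). The 3 longer genes called were Prss50, Snhg9 and Hist1h3c. Prss50, a testis serine protease gene, was at 3.83 against 4.82 FPKM without and 12.2 against 3.21 FPKM with doxycycline.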

How the data were processed

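The 8 libraries of the series fall into 4 groups of 2, and 4 of them, in 2 groups, enter the main comparison. Per the submitters' processing notes the tools were TopHat2 2.0.8 and Cufflinks 2.1.1, with mm10 as the build. Annotation, strandedness and normalization mode were not given in the sources read here. The authors deposited FPKM, 1 value per gene and group. The authors' test statistic was deposited as a score with no fixed range, and the authors' p-value and q-value were deposited with it, in the columns of a Cuffdiff gene table. The deposited q-value is adjusted over all 6 comparisons of the table. The deposited column of fold changes holds damaged cells, so ratios were computed from FPKM.

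Genes were called at a deposited q under 0.05. The SE of a log2 ratio is that ratio over the deposited statistic, and list medians use log2(FPKM + 1). These SEs do not track the deposited p-values behind the calls. Sox2 without doxycycline, with a log2 ratio of -0.68 and an SE of 0.32, was called. Phlda2 with doxycycline, at -0.64 with an SE of 0.14, was not. An SE printed here therefore cannot be read as the error behind a call. The test of change with doxycycline rests on the same SEs. Python 3.11.15, pandas 2.3.3, numpy 2.4.6, scipy 1.17.1 and matplotlib 3.10.9 were used. Shared stretches of 75 bases were counted over GENCODE M21 transcripts, and 174 of the 177 called genes were matched to RefSeq. Of 173 called genes with transcripts there, 139 shared under 5% of their stretches with other genes and 7 shared over 50%. Named are, among called genes, the 15 largest folds in each direction, the 5 most abundant in each direction, every called list member and any listed at 0, with up to 5 abundant uncalled members of a list. Some genes that the rule covers are not reported here. Axin1, Cdh2, Acta2, Otx2, Igf2, H19, Cycs, Xist, Uty, Ddx3y, Ube1y1, 2610305D13Rik, Krt7, Olig2, Dlk1, Rtl1 and Dio3 fall outside this rule and were chosen after their values were seen. The gene set and all lists were chosen with earlier results of these data known. The alternatives tried are in the closing section. Since the table holds no value per library, no library was left out and none was compared with its replicate.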

Additional observations from a re-analysis of the deposited data

Results flagged for a closer look

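Each entry here was listed because its clone difference on the log2 scale differed between the cultures without and with doxycycline in the two-sided normal test with adjusted p under 0.05. The values that follow are the log2 ratio of clone 6 over clone 7 without doxycycline minus that with it, so a negative value means that clone 6 stood relatively higher with doxycycline. Of the longer genes, Prss50 had a difference of -2.26, the noncoding small nucleolar RNA host gene Snhg9 one of -1.17 and the histone gene Hist1h3c one of -6.2. Hist1h3c was at 0.629 against 3.06 FPKM without and 3.91 against 0.259 FPKM with doxycycline. Among microRNA entries the difference was 4.55 for Mir20a, 1.19 for Mir19b-1, 1.14 for Mir363, 0.66 for Mir692-1, 0.574 for Mir1906-1 and 0.338 for Mir3096b. It was -0.0383 for Mir2861, -0.239 for Mir3960, -0.278 for Mirlet7d, -0.529 for Mir25 and -0.959 for Mir684-2. Among small nucleolar RNA entries it was 0.572 for Snora16a, -0.192 for Snord104, -0.766 for Snord1b, -0.779 for Snora43 and -0.956 for Snord35a. The standard error of the difference for Mir2861 was 0.0068 on the log2 scale. With standard errors taken from the deposited p, which has a floor of 5e-05, 0 genes were called and 20 had an unadjusted p under 0.05.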

How the results depend on the processing

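The count of 177 called genes (58.8% of them higher) became 117 when a ratio of at least 2-fold was also asked for, of which 63.2% were higher; 195 genes were called with adjustment within this comparison alone, 144 at 5 FPKM or more and 179 with no minimum. With a pseudocount of 0.1 the medians were 1.03 for streak factors, 1.68 for Wnt ligands and -1.25 for the Dlk1-Dio3 region. With no FPKM minimum they were 0.0833 for Wnt ligands, -0.43 for the Dlk1-Dio3 region, -0.0417 for neural and 0.36 for trophoblast genes. At 5 FPKM or more they were 1.41 for streak factors, 2.06 for Wnt ligands, -1.69 for the Dlk1-Dio3 region and 0.92 for trophoblast genes. With a mean of 1 FPKM over the 4 groups the Dlk1-Dio3 median was -1.24. The test of change with doxycycline called 0 genes with standard errors from the deposited p, which has a floor of 5e-05. It called 2 without microRNA and small nucleolar RNA entries, an alternative chosen after seeing the data. For these, other kept genes, another pseudocount or other errors enter by construction. The other 59 recomputed values stayed within 1.5 times the main count or within the tolerance for a median, and 0 changed direction. Depth is unknown; the median SE of a log2 ratio was 0.51 under 5 FPKM and 0.21 at 100 FPKM or more. No paired analysis was possible because the deposited values join both libraries of a group, so no library could be left out either.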
